A study of Mus musculus with 96 samples.

Results

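The enzymes that build cholesterol and fatty acids, their SREBP regulators and the genes of sterol efflux were followed over 2 time courses of serum stimulation in mouse embryonic fibroblasts. The set is a list of 38 gene symbols taken by name, with no measured value in the rule, and 36 of them are rows of the deposited table of 15895 genes. They were kept in 4 groups, namely 17 genes of sterol synthesis, 6 regulators and transport proteins of the SREBP pathway, 10 genes of fatty acid synthesis and desaturation, and 3 genes of sterol efflux and of the LXR pathway. Of the remaining symbols, Msmo1 is listed under its older symbol Sc4mol, and Hmgcs1 was not analysed here. The cells were primary fibroblasts of CF-1 mice at embryonic day 13, held for 36 h in 0.5% fetal calf serum (FCS) and then brought to 20% FCS at 0 h. The starved group was made of the libraries at -1 h and 0 h of each time course, so 4 libraries, and every later library is named by its hours after serum. Cycle 1 had 63 libraries and ran to 38 h, Cycle 2 had 32 and ran to 27 h, and 29 hours after serum were sampled in both. All groups shared the strain, the medium and the starvation, and no label says whether the cultures of different hours or cycles came from different embryos.

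SREBP-2 and SREBP-1, the products of Srebf2 and Srebf1, are transcription factors made as membrane proteins of the endoplasmic reticulum. When sterols in that membrane are low, the escort protein Scap carries them to the Golgi, where proteases release the active part, and when sterols are high, Insig1 and Insig2 hold Scap back. SREBP-2 acts mostly on the enzymes from acetyl-CoA to cholesterol, SREBP-1 on the enzymes that make and desaturate fatty acids, while oxysterols act through the LXR receptors on the exporters Abca1 and Abcg1 and on Mylip, a ubiquitin ligase.

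The values are a normalized signal, gene counts scaled by the authors to a common library size, in which 4615895 to 14953932 reads per library were recovered (median 9917977). The 24.5 h library of Cycle 1 stood apart, with 12.7% of genes more than 2-fold off the mean of its neighbours in time against a median of 0.773% over the libraries after serum. It has no counterpart in Cycle 2 and does not enter the main test. Of the alternatives, only the one that takes all libraries of a window as replicates holds it. It lay above the other libraries of Cycle 1 from 21 to 27 h for 13 of the 36 genes and below them for 13. The ranges, extremes and overlaps of signal given below for the 36 genes leave it out, while the marker ranges over all libraries hold it. All 8 fibroblast markers were present, with a summed signal of 384474 to 531590 in the starved libraries and 171906 to 531590 over all libraries. The summed signal of 6 adipocyte markers was 647 to 1858 in the starved libraries and 515 to 1858 over all, with Lep at a median of 0.721. The sum of 5 leukocyte markers was 287 to 524 in the starved libraries and 171 to 1079 over all, and that of 4 endothelial markers 176 to 272 and 37.2 to 272. The sum of 4 epithelial markers was 109 to 275 in the starved libraries and 33.1 to 599 over all, and the hepatocyte marker Alb was at 2.47 to 40.6 and 0 to 40.6. In bulk RNA, fewer cells of a type and less RNA per cell cannot be told apart.

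The promoters of SREBP targets are classically described by a sterol element next to an NF-Y box and an Sp1 box. A promoter was found for 28 of the 36 genes in the RefSeq table (GRCm38.p6), and the 300 bases around each start were searched on both strands. The NF-Y box CCAAT was in 22 of 28 (78.571%), and in 13 of the 14 sterol synthesis promoters, against 42.012% of the 11511 genes of the data table with a promoter. The Sp1 box GGGCGG was in 23 of 28 against 65.242% of genes, and the E-box CACGTG in 7 of 28 against 11.198%. The sterol element TCACNCCAC was in 0 of 28 against 1.451% of genes, and its shorter form TCACNCCA, which the longer motif contains, was in Sc4mol and Srebf2 alone against 4.656%. These are matches of letters in a fixed window and were not tested. The 250 bases before the start of 4 genes that the results below turn on are printed 5′ to 3′, with the short sterol element and the NF-Y box (ATTGG where it lies on the opposite strand) in capitals. They are Srebf2 on chr15:82147019-82147268, Insig1 on chr5:28071162-28071411, Nsdhl on chrX:72918271-72918520 and Acss2 on chr2:155517793-155518042, all on the plus strand.
Srebf2: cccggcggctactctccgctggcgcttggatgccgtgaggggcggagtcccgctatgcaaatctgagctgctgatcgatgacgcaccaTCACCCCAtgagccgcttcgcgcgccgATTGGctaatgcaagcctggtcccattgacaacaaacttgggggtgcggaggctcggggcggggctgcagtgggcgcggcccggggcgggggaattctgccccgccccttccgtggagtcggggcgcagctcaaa
Insig1: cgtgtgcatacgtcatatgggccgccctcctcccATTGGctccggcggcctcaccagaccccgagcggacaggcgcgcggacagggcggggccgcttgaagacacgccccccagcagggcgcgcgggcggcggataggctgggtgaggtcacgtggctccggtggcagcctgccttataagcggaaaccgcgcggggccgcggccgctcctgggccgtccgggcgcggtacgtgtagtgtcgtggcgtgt
Nsdhl: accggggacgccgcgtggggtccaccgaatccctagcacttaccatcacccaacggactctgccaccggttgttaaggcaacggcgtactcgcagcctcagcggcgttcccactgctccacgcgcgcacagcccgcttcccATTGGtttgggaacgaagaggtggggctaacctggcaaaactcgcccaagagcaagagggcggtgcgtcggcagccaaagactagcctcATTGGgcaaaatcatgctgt
Acss2: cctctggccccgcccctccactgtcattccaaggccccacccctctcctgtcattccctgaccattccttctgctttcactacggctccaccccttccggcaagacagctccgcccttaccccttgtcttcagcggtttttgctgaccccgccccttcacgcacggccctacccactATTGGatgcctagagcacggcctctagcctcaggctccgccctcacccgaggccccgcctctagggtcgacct
In Srebf2 the short sterol element TCACCCCA begins 162 bases and the NF-Y box 135 bases before the start. The NF-Y box begins 216 bases before the start in Insig1, at 109 and again at 20 bases in Nsdhl, and at 73 bases in Acss2.

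After serum 22 of the 36 genes fell by more than 2-fold in at least 1 of 5 windows of hours, against 31.5% of all genes, and 1 was higher. Changes were taken on the log2(value + 1) scale as the mean over the shared hours of a window minus the starved level, and tested with limma over all genes. A gene was called lower or higher where the adjusted p was below 0.05 and the log2 change was larger than 1. Lower calls numbered 2 of 36 in the window of 1 to 3 h and 13 in that of 4 to 8 h. At 9 to 14 h they numbered 20, and 18 and 15 genes were lower at 15 to 20 h and 21 to 27 h. The shares of all genes called lower in these windows were 11.8%, 18.6%, 16.6%, 17.1% and 19%. With edgeR on the recovered reads the counts were 1, 11, 17, 17 and 12. The single higher call, with limma and with edgeR, was Abcg1 at 4 to 8 h, while 5.3%, 7.64%, 6.96%, 6.8% and 6.59% of all genes were called higher in the successive windows. In the limma F test over single hours 27 of the 36 were called, against 52.5% of all genes.

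The median change of the 36 genes in the successive windows was -0.43, -0.89, -1.06, -1.00 and -0.85. Over all genes the medians were -0.26, -0.23, -0.14, -0.13 and -0.16, which moved to between -0.09 and -0.02 when the libraries were rescaled by median ratios. Of the calls over all genes at 1 to 3 h, 68.9% were lower under the authors' scaling and 47.3% under median ratios, so the first window depends on the scaling more than the later ones. The count of lower calls also depended on the cycle. The tests of 1 cycle alone took the libraries of consecutive hours in a window as replicates. Their error is therefore not that of the main test, and their p-values describe those libraries only. In Cycle 1 alone it was 6, 15, 14, 13 and 8 in the successive windows, against 16.6%, 23.1%, 21.1%, 21.4% and 23.8% of all genes. In Cycle 2 alone it was 1, 19, 25, 23 and 20, against 5.82%, 12.2%, 9.7%, 10.3% and 12% of all genes.

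**Figure D1:**
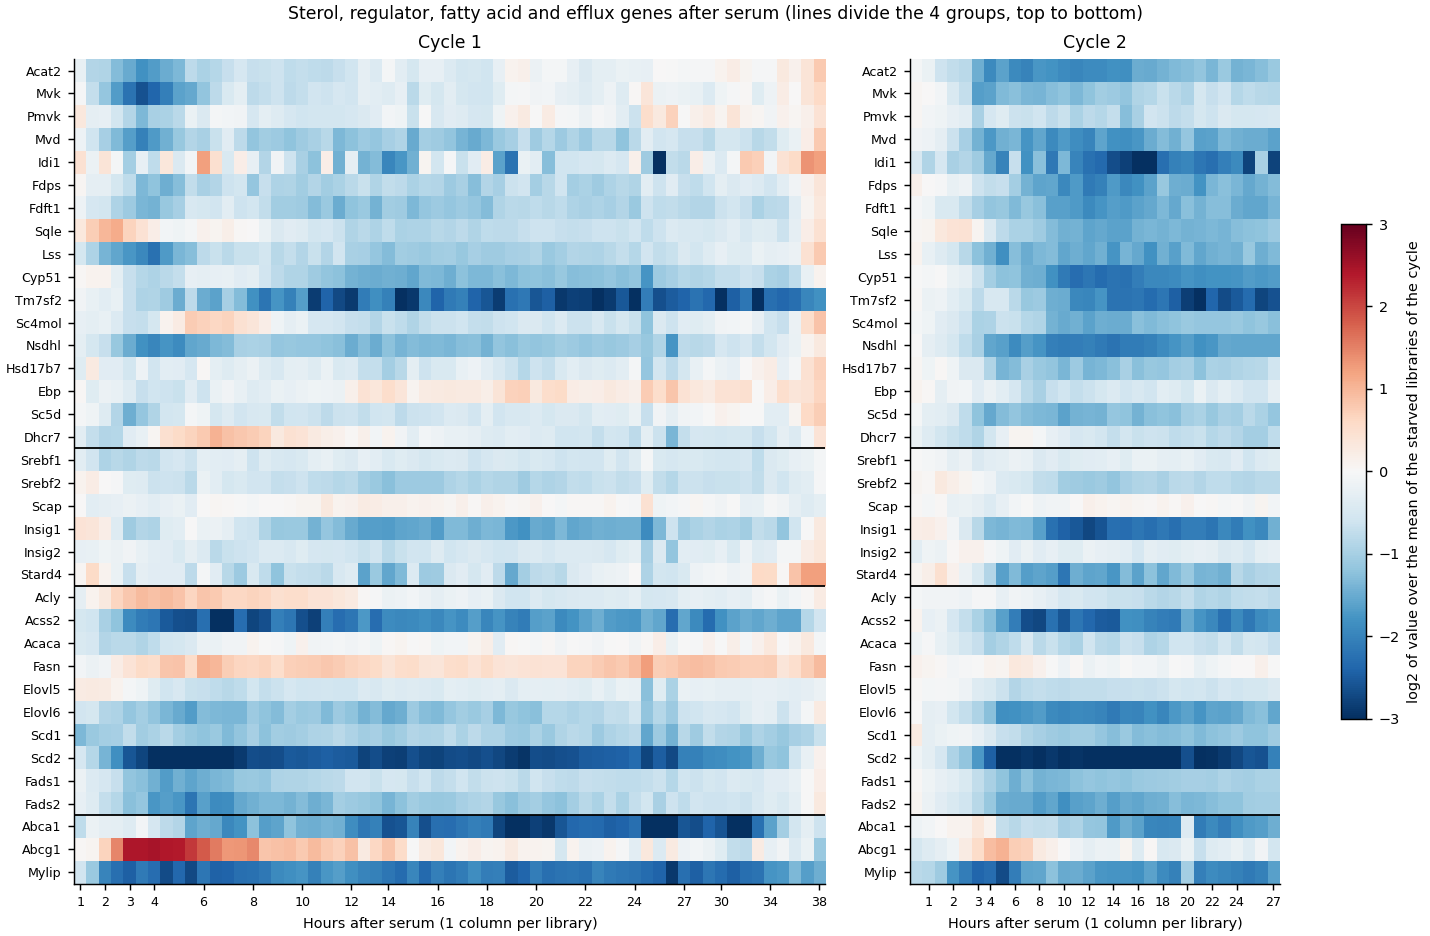
Heat map of the 36 genes (rows, in 4 groups divided by lines) in every library after serum (columns, hours on the axis) of Cycle 1 and Cycle 2. Color is the log2 ratio to the starved mean of that cycle, from blue (lower) to red (higher), limited to 3 in size. Blue prevails from about 4 h, with Abcg1 red early in Cycle 1 and the sterol genes turning pale or red in the last Cycle 1 columns.

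**Figure D2:**
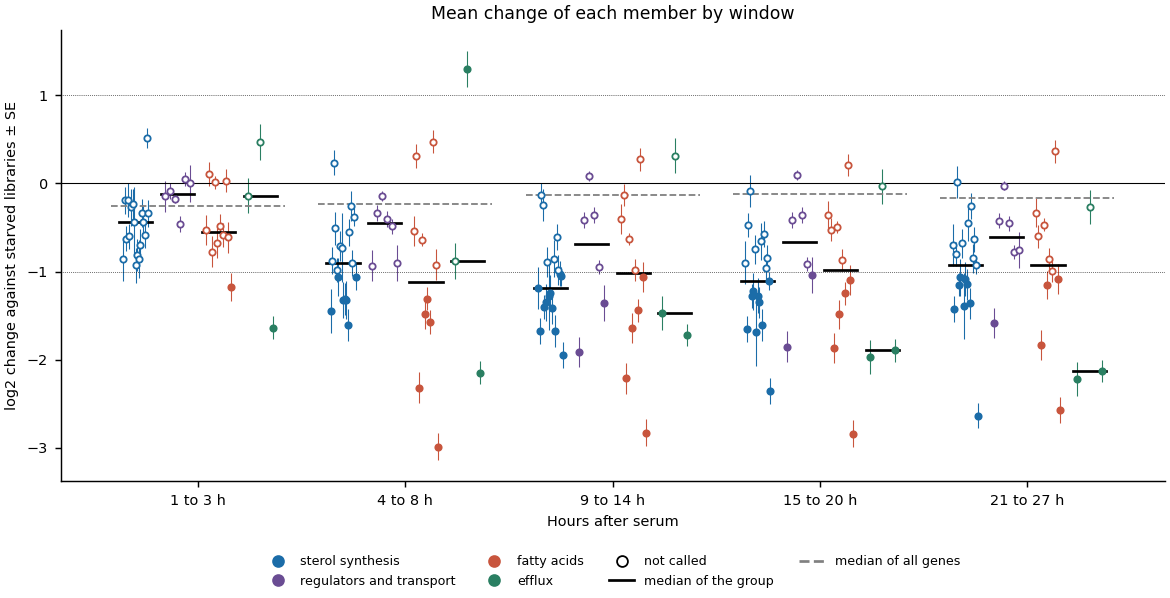
Log2 change of each gene against the starved libraries (points, with SE) by window and group. Filled points were called and open ones were not, black bars are group medians and dashed lines the median of all genes. The sterol median went from -0.43 at 1 to 3 h to -1.19 at 9 to 14 h.

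Of the 17 sterol synthesis genes 0 were called at 1 to 3 h with limma or edgeR, where 11 were lower and 1 higher at an unadjusted p under 0.05. With limma 7 were lower at 4 to 8 h, 11 at 9 to 14 h, 9 at 15 to 20 h and 8 in the last window. In these windows the group median was -0.43, -0.90, -1.19, -1.11 and -0.93. Of the 17, 12 were called lower in at least 1 window, against 31.5% of all genes. The called genes ran from the first condensation (Acat2) through C4 demethylation (Nsdhl) to the C5 desaturase Sc5d, which was called at the limit in 1 window. Ebp and Dhcr7, the enzyme that completes cholesterol, were not called in any window.

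Mvk (chr5:114894278-114910600, NCBIM37), mevalonate kinase, stood at 368 and 284 in the starved libraries of Cycle 1 and at 384 and 400 in those of Cycle 2. It reached its lowest value, 53.4, at 3.5 h of Cycle 1 and 125 at 3 h of Cycle 2. The limma change was -1.32 ± 0.22 (SE, adjusted p = 3.36e-06) at 4 to 8 h, where no library of either cycle reached its starved level, and -0.45 ± 0.21 (adjusted p = 0.0586) at 21 to 27 h, where the libraries of Cycle 1 overlapped the starved ones. Mvk was therefore called in a single window and then came back toward its starved level. Acat2, which joins 2 acetyl-CoA in the cytosol, was at 649 and 526 before serum in Cycle 1 and at 1032 and 968 in Cycle 2, with lowest values of 166 at 3.5 h and 250 at 7 h. Its change was -1.45 ± 0.25 (limma adjusted p = 6.96e-06) at 4 to 8 h and -1.19 ± 0.24 (adjusted p = 8.8e-05) at 9 to 14 h. From 9 h the Cycle 1 libraries overlapped the starved ones, whereas those of Cycle 2 stayed below.

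Mvd, which makes isopentenyl diphosphate, began at 285 and 257 in Cycle 1 and at 384 and 301 in Cycle 2. It fell to 66.6 at 3.5 h in the former and to 86.8 at 12 h in the latter. It was called in 4 windows, with a change of -1.41 ± 0.18 (limma adjusted p = 3.71e-08) at 9 to 14 h, and all libraries of both cycles from 4 to 27 h lay below the starved ones. Fdps, farnesyl diphosphate synthase, started from 293, 255, 387 and 432 and had its lowest values, 99.1 and 93.7, at 4.5 h of Cycle 1 and 12 h of Cycle 2. Its change at 9 to 14 h was -1.35 ± 0.21 (limma adjusted p = 1.6e-06). In Cycle 1 alone it was -0.86, short of the 2-fold limit. Fdft1, squalene synthase, dropped from 658, 606, 969 and 959 to 226 at 11.5 h of Cycle 1 and 257 at 12 h of Cycle 2, a change of -1.40 ± 0.14 (adjusted p = 1.82e-10) at 9 to 14 h. Every library of Fdft1 from 1 to 27 h was below the starved libraries of its cycle. Idi1, isopentenyl diphosphate isomerase, rested on few reads, with a median of 8 per library, a maximum of 33 and 2 libraries at 0. Its starved values were 7.51 and 10.0 in Cycle 1 and 26.7 and 27.2 in Cycle 2. The limma change of -1.69 ± 0.38 (adjusted p = 0.000256) at 15 to 20 h was -0.67 in Cycle 1 alone, where the libraries overlapped the starved ones.

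Sqle was higher before it fell. It encodes squalene epoxidase, the first oxygenation step and a rate-limiting enzyme of the pathway (chr15:59146632-59162747). From 1247 and 1112 in the starved libraries of Cycle 1 and 1959 and 1818 in those of Cycle 2, Sqle came to 2549 and 2534 at 2.5 h, a fold of 2.16 in Cycle 1 and 1.34 in Cycle 2. All libraries at 1 to 3 h were above the starved libraries of their cycle, and the change of 0.51 ± 0.11 (limma adjusted p = 0.000172) was under 2-fold. It then sank to 607 at 14.5 h of Cycle 1 and 619 at 15 h of Cycle 2, a change of -1.11 ± 0.11 (adjusted p = 1.43e-10) at 15 to 20 h. In Cycle 1 alone that change was -0.78. The peak and the trough thus had like values in the cycles, and the starved libraries did not.

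Lss, lanosterol synthase, which closes the sterol rings, moved the other way in the first hours. Its starved values were 449, 388, 738 and 724, and it was down to 88.7 at 4 h of Cycle 1 and 203 at 5 h of Cycle 2. The change was -0.93 ± 0.20 (limma adjusted p = 0.000205) at 1 to 3 h and -1.32 ± 0.20 (adjusted p = 9.2e-07) at 4 to 8 h, and no library from 1 to 27 h reached the starved range of its cycle. Cyp51, the lanosterol demethylase, held its level longer. It stood at 2005, 1896, 3141 and 2986 before serum and was still at a median of 2010 at 1 to 3 h of Cycle 1, with lowest values of 660 at 15 h of Cycle 1 and 622 at 13 h of Cycle 2. Its change was -0.19 ± 0.15 (adjusted p = 0.3) at 1 to 3 h and -1.67 ± 0.15 (adjusted p = 2.77e-11) at 9 to 14 h, where neither cycle overlapped its starved libraries.

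Nsdhl, a sterol dehydrogenase that takes part in C4 demethylation (chrX:70163896-70203853), fell in every library from 1 to 27 h. Its starved values were 706, 695, 1054 and 1063. At 4 to 8 h the values ran from 181 to 366 with a median of 244 in Cycle 1 and from 288 to 361 with a median of 337 in Cycle 2. The limma change was -1.60 ± 0.19 (adjusted p = 4.89e-09) in that window, -1.67 ± 0.18 at 9 to 14 h and -1.36 ± 0.18 at 21 to 27 h. Sc5d, the C5 desaturase, went from 367, 349, 794 and 672 to 130 at 3 h of Cycle 1 and 241 at 10 h of Cycle 2, and was called at 9 to 14 h only, at -1.02 ± 0.14 (adjusted p = 2.24e-07). That call lies at the limit and was lost, at -0.95, under median ratio scaling.

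Tm7sf2, a sterol C14 reductase (chr19:6062821-6068373), declined from window to window through 27 h. It stood at 167 and 153 in the starved libraries of Cycle 1 and at 166 and 144 in those of Cycle 2, and the cycles overlapped. The lowest values were 17.0 at 30 h of Cycle 1 and 18.8 at 21 h of Cycle 2. Its limma change deepened from -0.34 ± 0.15 (adjusted p = 0.056) at 1 to 3 h through -1.06 ± 0.15, -1.94 ± 0.15 and -2.36 ± 0.15 to -2.64 ± 0.14 (adjusted p = 1.38e-16) at 21 to 27 h, the largest fall of a sterol gene in the last window. The call at 4 to 8 h was lost, at -0.89, under median ratio scaling. The gene rests on a median of 42 reads per library.

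The other 5 sterol genes were not called in any window. Dhcr7, which completes cholesterol, was at 460 and 452 in the starved libraries of Cycle 1, at 248 at its lowest from 1 to 3 h, and at 941 at 6.5 h, a fold of 2.06. In Cycle 2 it was at 636 and 546, then at 318 and at 627 (6 h), a fold of 1.06. The limma change at 4 to 8 h was 0.24 ± 0.14 (adjusted p = 0.144), and -0.13 ± 0.14 (adjusted p = 0.406) at 9 to 14 h. Dhcr7 was lower, by less than 2-fold, at 1 to 3 h (-0.63 ± 0.14, limma adjusted p = 0.000312). The same held at 15 to 20 h (-0.47 ± 0.14, adjusted p = 0.00326) and 21 to 27 h (-0.80 ± 0.135, adjusted p = 4.95e-06). Sc4mol, a C4 methyl oxidase, Hsd17b7, a sterol ketone reductase, and Pmvk, phosphomevalonate kinase, had changes of -0.98 ± 0.17, -0.89 ± 0.17 and -0.61 ± 0.15 at 9 to 14 h, past the p threshold but under 2-fold. Ebp, a sterol isomerase, was at -0.25 ± 0.19 (adjusted p = 0.252).

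**Figure D3:**
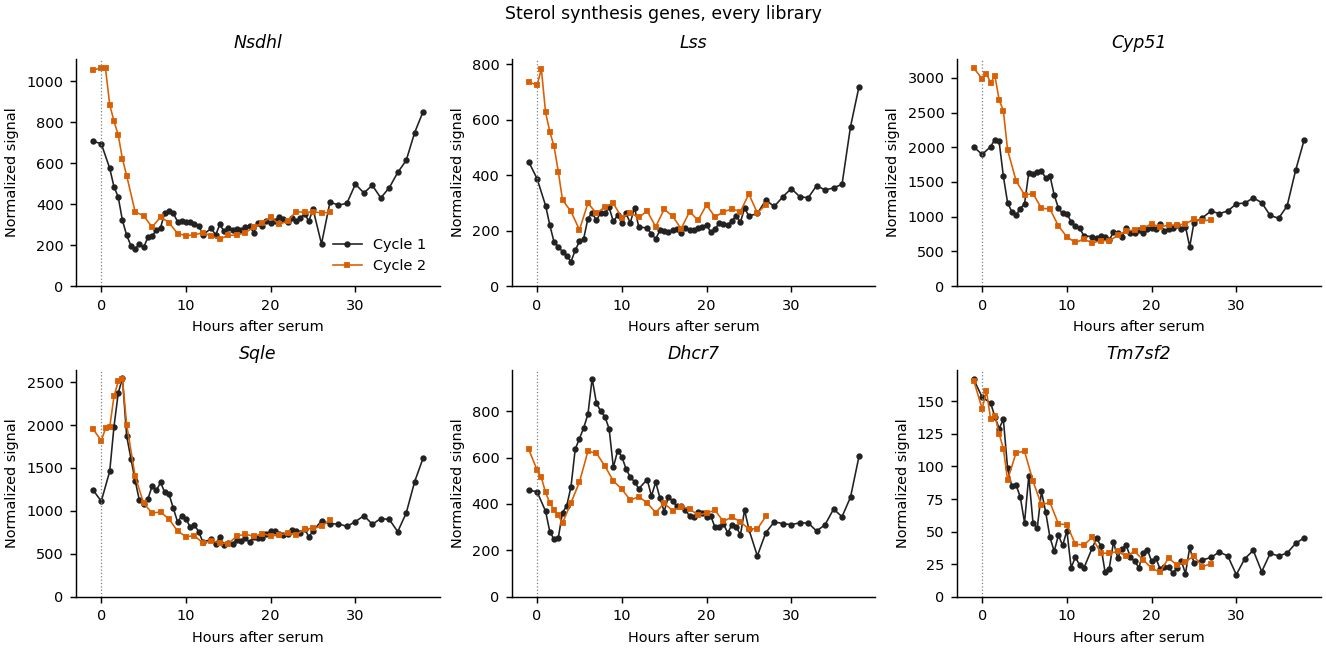
Normalized signal of 6 sterol synthesis genes against hours after serum in Cycle 1 (black circles) and Cycle 2 (orange squares), 1 point per library, with a dotted line at 0 h. Sqle peaked at 2.5 h in both cycles (2549 and 2534), Tm7sf2 declined through 27 h, and the curves of Cycle 1 were higher at 38 h than their median of 28 to 34 h. Cycle 2 has no libraries there.

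Among the 6 regulators and transport genes the sterol sensor Insig1 and the sterol carrier Stard4 were called, and the genes of the SREBPs and of Scap were not. Insig1 (chr5:28397952-28405201) was at 531 and 638 before serum in Cycle 1 and at 890 and 983 in Cycle 2. It was highest at 1 h in both, at 769 and 1084, and fell to 167 at 19.5 h and 141 at 12 h. Its limma change was -0.15 ± 0.18 (adjusted p = 0.506) at 1 to 3 h and -1.91 ± 0.17 (adjusted p = 3.31e-11) at 9 to 14 h, and no library from 9 to 27 h overlapped the starved ones. Stard4, which moves cholesterol between membranes, changed by -1.36 ± 0.20 (adjusted p = 7.74e-07) at 9 to 14 h from starved values of 201, 232, 487 and 442. Its highest value in Cycle 2, 649, was at 1.5 h.

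Srebf2 (chr15:81977696-82035806) was at 1523, 1631, 1732 and 1723 before serum. It was highest at 1.5 h in both cycles, at 1852 and 2127, and lowest at 14 h in both, at 662 and 761. The limma change at 9 to 14 h was -0.95 ± 0.08 (adjusted p = 5.36e-12), so it differed from the starved libraries by slightly less than 2-fold, and both cycles lay wholly below them. Srebf1 was lowest at 434 at 2 h of Cycle 1, against 812 and 848, and its changes lay between -0.46 and -0.36 in all 5 windows. Insig2 changed by -0.42 ± 0.09 and Scap by -0.03 ± 0.05 (adjusted p = 0.68) at 21 to 27 h. The group median went from -0.12 at 1 to 3 h to -0.68 at 9 to 14 h.

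Of the 10 fatty acid genes 1 was lower at 1 to 3 h, 5 in each of the next 3 windows and 4 at 21 to 27 h, with group medians of -0.56, -1.11, -1.02, -0.98 and -0.93. The desaturases and the acetyl-CoA synthetase fell, while the core synthesis enzymes were not called. Scd2 (chr19:44368166-44381354), a stearoyl-CoA desaturase, had the largest fall of the set from 4 to 20 h. It was at 9932 and 9298 in the starved libraries of Cycle 1 and at 14040 and 13128 in those of Cycle 2. At 4 to 8 h it ran from 912 to 1525 with a median of 1113 in Cycle 1, and from 1573 to 2498 with a median of 1697 in Cycle 2, far below every starved library. The limma change was -1.18 ± 0.16 (adjusted p = 1.27e-07) at 1 to 3 h, -2.98 ± 0.16 (adjusted p = 5.77e-17) at 4 to 8 h and -2.57 ± 0.15 at 21 to 27 h. The call at 1 to 3 h was lost, at -0.93, under median ratio scaling. Its neighbour Scd1 (chr19:44468941-44482199) fell less, from 3721, 4048, 3882 and 3623 to 1449 at 26 h of Cycle 1 and 1493 at 21 h of Cycle 2. In the first hours Scd1 was at 1518 to 2337 in Cycle 1 and at 3129 to 3496 in Cycle 2, and the change of the cycles at 1 to 3 h differed by 0.85 (limma adjusted p = 0.00226). Its change was -1.06 ± 0.17 (adjusted p = 3.15e-06) at 9 to 14 h and about as large in the next 2 windows. The call at 9 to 14 h was lost, at -0.98, under median ratio scaling. At 15 to 20 h it was -0.95 in Cycle 1 alone, short of 2-fold.

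Acss2 (chr2:155343684-155411460) makes acetyl-CoA from acetate in the cytosol and nucleus. It stood at 203, 210, 204 and 181 before serum, at like levels in both cycles, and fell to 20.2 at 7 h of Cycle 1 and 29.2 at 8 h of Cycle 2. The limma change was -2.32 ± 0.18 (adjusted p = 5.82e-13) at 4 to 8 h and -1.83 ± 0.17 at 21 to 27 h, with every library from 1 to 27 h below the starved ones. Elovl6, which lengthens saturated fatty acids, dropped from 633, 696, 882 and 884 to 207 at 5.5 h of Cycle 1 and 204 at 14 h of Cycle 2, a change of -1.64 ± 0.17 (adjusted p = 3.69e-10) at 9 to 14 h. The Fads genes, desaturases of polyunsaturated fatty acids, reached their lowest values by 5.5 h in Cycle 1 and later in Cycle 2. Fads2 went from 601, 676, 953 and 877 to 139 at 5.5 h of Cycle 1 and 257 at 10 h of Cycle 2, with a change of -1.57 ± 0.13 (adjusted p = 5.54e-12) at 4 to 8 h. Fads1 went from 1886, 1894, 2510 and 2325 to 587 at 4.5 h and 869 at 6 h, with a change of -1.31 ± 0.13 (adjusted p = 1.89e-10) at 4 to 8 h and -0.85 ± 0.12 at 21 to 27 h. Neither Fads gene overlapped its starved libraries from 1 to 27 h.

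Fasn, fatty acid synthase, did not fall. In Cycle 1 it went from 1565 and 1816 to 3533 at 6 h, and every library from 4 to 27 h was above the starved ones, whereas in Cycle 2 it went from 1884 and 2209 to 2542 at 6 h and overlapped them in all 5 windows. The limma change was 0.47 ± 0.13 (adjusted p = 0.00249) at 4 to 8 h. Acly, ATP citrate lyase, reached 4835 at 4.5 h of Cycle 1 from 2599 and 2416, but no library of Cycle 2 from 1 to 8 h exceeded its starved values of 3124 and 3153. Its change was 0.31 ± 0.13 (adjusted p = 0.0413) at 4 to 8 h. Later Acly was lower by less than 2-fold, at -0.52 ± 0.13 (limma adjusted p = 0.000723) at 15 to 20 h. At 21 to 27 h it was at -0.60 ± 0.13 (adjusted p = 0.000112). In both of these windows the libraries of both cycles lay below their starved ones. Acaca, acetyl-CoA carboxylase, was between -0.54 and -0.33 in all 5 windows, and Elovl5, an elongase of polyunsaturated fatty acids, was lowest at -0.64 ± 0.07 (adjusted p = 3.97e-09) at 4 to 8 h. Of the 6 adipocyte markers, Fabp4 changed by -0.01 ± 0.14 and Cidec by 0.58 ± 0.37 at 4 to 8 h, and Lep, of very low signal, by -2.54 ± 0.43. Adipoq ran from 28.3 to 343 over all libraries, Plin1 from 8.81 to 113 and Cebpa from 138 to 447, and their changes in this window are not given. The highest summed signal of the 6 adipocyte markers over all libraries, 1858, was that of a starved library. The part of these markers' cells in the falls of Scd2, Acss2 and Elovl6 was not tested.

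The 3 efflux genes moved apart from each other. Mylip (chr13:45485111-45507388), the ubiquitin ligase under LXR control, was the fastest to fall. It was at 711 and 599 before serum in Cycle 1 and at 592 and 461 in Cycle 2, was below 0.5 of the starved mean by 1.5 h in both, and stood at 99.3 to 146 at 4 to 8 h of Cycle 1 and 81.5 to 180 in Cycle 2. The limma change was -1.64 ± 0.13 (adjusted p = 3.4e-12) at 1 to 3 h and -2.14 ± 0.13 (adjusted p = 2.51e-15) at 4 to 8 h, with no overlap at any hour. Abca1 (chr4:53043659-53172767), the exporter of cholesterol to apolipoproteins, was called lower from the window of 9 to 14 h on. It was at 806, 933, 700 and 675 before serum and still reached 824 at 3.5 h of Cycle 1 and 873 at 3 h of Cycle 2. Its limma change was -0.14 ± 0.20 (adjusted p = 0.591) at 1 to 3 h and -0.88 ± 0.20 (adjusted p = 0.000313) at 4 to 8 h. It was -1.47 ± 0.20 at 9 to 14 h and -2.21 ± 0.19 (adjusted p = 1.17e-11) at 21 to 27 h. In Cycle 1 all libraries at 1 to 3 h (516 to 768) and 4 to 8 h (228 to 614) were below the starved ones, whereas Cycle 2 overlapped them in both windows. The 20 h library of Cycle 2 stood above its neighbours for both, with Abca1 at 520 and Mylip at 259.

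Abcg1 (chr17:31194643-31252722), which exports cholesterol to lipoproteins, was the only gene of the set called higher. It was at 60.1 and 62.9 before serum in Cycle 1 and at 80.1 and 90.6 in Cycle 2. It peaked at 339 at 4 h of Cycle 1, a fold of 5.52, and at 175 at 5 h of Cycle 2, a fold of 2.05. The limma change at 4 to 8 h was 1.30 ± 0.20 (adjusted p = 1.62e-06), and all libraries of both cycles in that window were above the starved ones. In Cycle 2 alone the change was 0.73, so the call rests on Cycle 1, although the difference of -1.14 between the cycles did not pass its own test (adjusted p = 0.1). By 15 to 20 h the libraries overlapped the starved ones again. Of the 5 leukocyte markers, Csf1r and Cd14 were also called higher at 4 to 8 h, by 1.20 each, while Ptprc changed by 0.16 ± 0.19. Cd68 ran from 37.3 to 245 and Emr1 from 12.7 to 139 over all libraries, and their changes in this window are not given. The part of leukocytes in the change of Abcg1 was not tested.

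**Figure D4:**
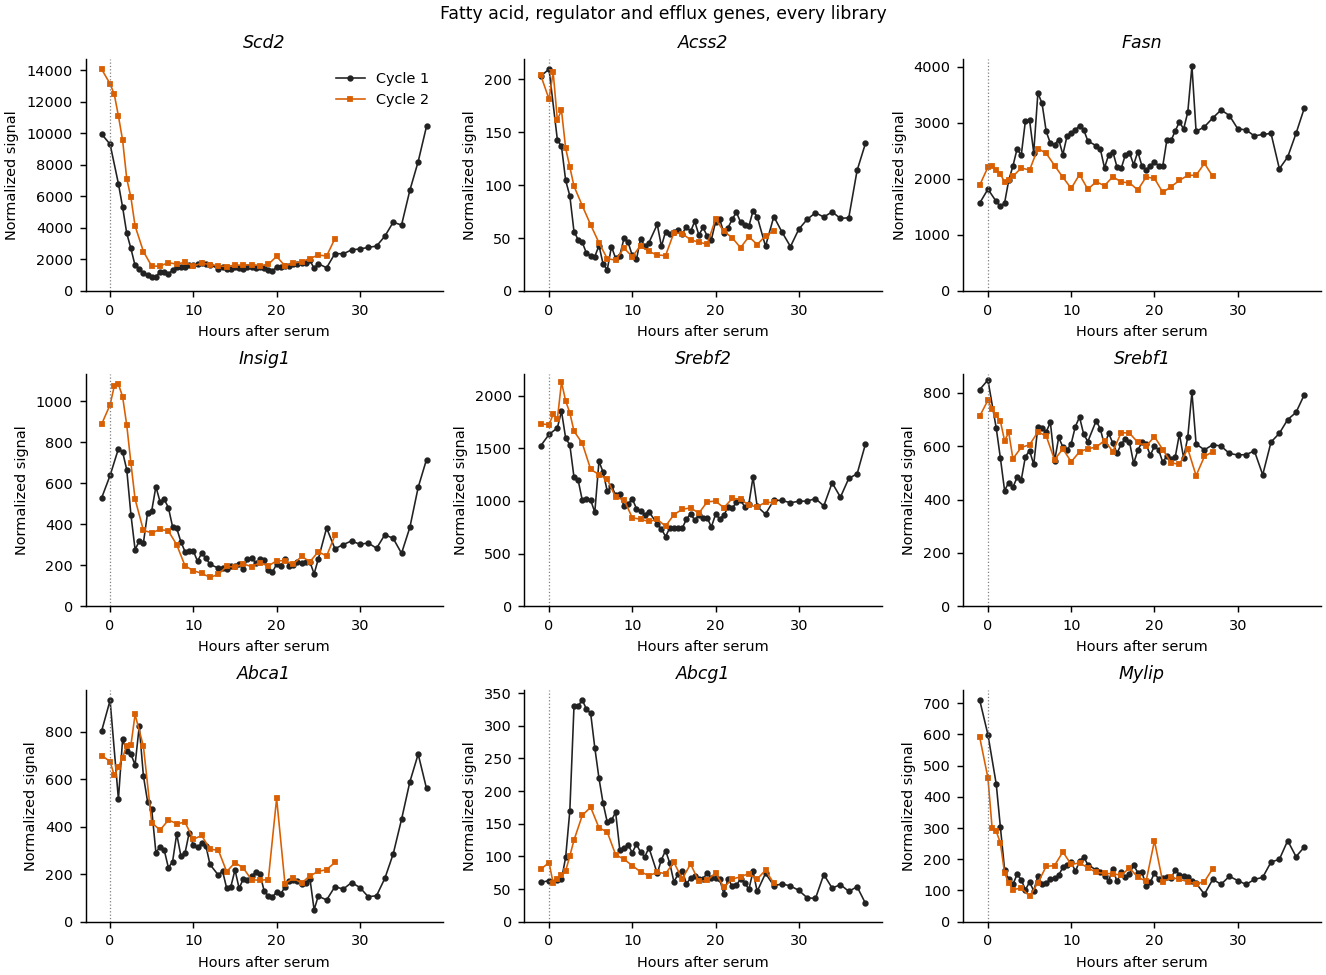
Normalized signal of 9 fatty acid, regulator and efflux genes against hours after serum in Cycle 1 (black circles) and Cycle 2 (orange squares), 1 point per library, with a dotted line at 0 h. Scd2 and Acss2 sank within 8 h, Fasn was higher in Cycle 1, Abcg1 peaked at 339 and 175, and Mylip fell within 1.5 h.

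A further list of 41 genes of the same pathways gave 4, 6, 6, 6 and 7 lower and 2, 3, 2, 0 and 0 higher calls in the 5 windows, with a median change between -0.35 and -0.13. The shares of all genes called were 11.8%, 18.6%, 16.6%, 17.1% and 19% lower and 5.3%, 7.64%, 6.96%, 6.8% and 6.59% higher. In the window with the most calls, 4 to 8 h, the lower genes were Thrsp (-1.78 ± 0.43), Pnpla3 (-1.68 ± 0.29), Lpin1 (-1.29 ± 0.26), Acsl3 (-1.22 ± 0.12), Gpam (-1.07 ± 0.23) and Acacb, which was at 0.25 of its starved level (limma adjusted p = 9.2e-09). All of these stood in the further list as fatty acid and glycerolipid genes, and that list was chosen with earlier results of these data known. With 6 of 41, lower calls in the further list were no more frequent at 4 to 8 h than the 18.6% over all genes. The call of Thrsp was lost without the replicate block (limma adjusted p = 0.0755), and that of Gpam, at -0.91, under median ratio scaling. The higher genes at 4 to 8 h were Soat1, which esterifies cholesterol for storage, at 2.12 ± 0.08, the LXR target Arl4c at 1.67 ± 0.15 and the acyl-CoA synthetase Acsl4 at 1.30 ± 0.12.

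The sterol genes started from higher levels in Cycle 2. In 16 of the 17, both starved libraries of Cycle 2 were above both of Cycle 1, against 29.5% of all genes, and the median ratio of Cycle 2 to Cycle 1 was 1.57, against 0.938 over all genes. Tm7sf2, with a ratio of 0.969, was the exception. The ratio was 2.05 for Sc5d, 1.92 for Sc4mol, 1.75 for Lss, 1.57 for Cyp51 and 1.2 for Mvk. At the shared hours from 9 to 27 h the median ratio of the same 17 genes was 0.99, from 0.771 for Acat2 to 1.24 for Sc4mol. Among the regulators, Stard4 and Insig1 had starved ratios of 2.15 and 1.6, Scap of 1.00 and Srebf1 of 0.894. The efflux genes Abca1 and Mylip were higher in Cycle 1 before serum, at ratios of 0.791 and 0.804. These ratios have 2 libraries a side and were not tested.

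**Figure D5:**
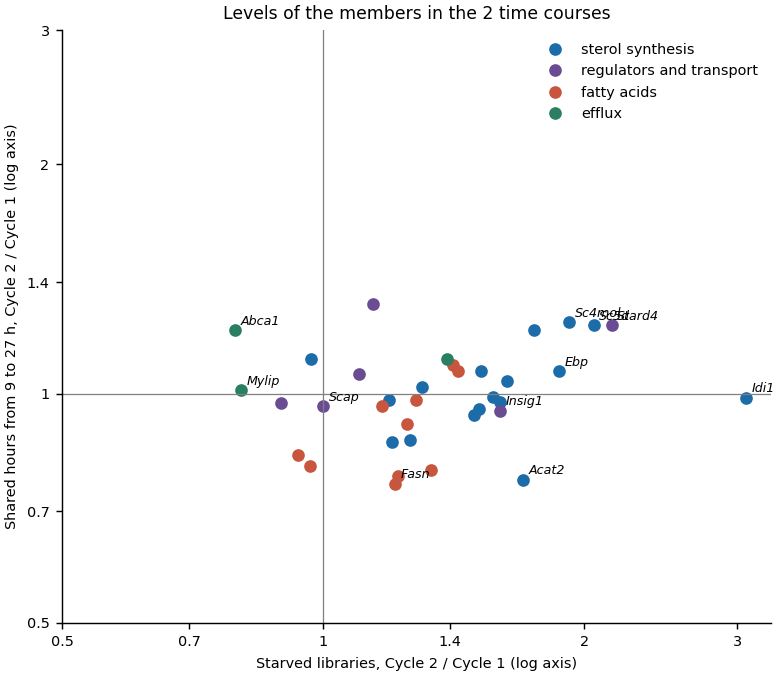
Ratio of Cycle 2 to Cycle 1 for each of the 36 genes in the starved libraries (horizontal) and at the shared hours from 9 to 27 h (vertical), both on log axes, colored by group. The sterol genes spread to the right of 1 (median 1.57) and lie around 1 on the vertical axis (median 0.99).

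A difference between the cycles in the change of a window passed its test (limma adjusted p under 0.05, log2 difference above 1 in size) for Acat2 in 3 windows and for Sc4mol and Insig1 in 1 each, with the libraries of consecutive hours standing as replicates, so that these p-values describe those libraries only. In the successive windows these were 0, 1, 2, 1 and 1 of the 36 genes, against 0.78%, 5.14%, 8.08%, 9.91% and 9.41% of all genes. The median fold of the sterol group over the starved mean was 0.450 at 3.5 h of Cycle 1, 0.770 at 7 h and 0.588 at 14 h. In Cycle 2 it was 0.495 at 4 h, 0.406 at 7 h and 0.317 at 14 h. These courses were not tested against each other.

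In the last hours of Cycle 1, for which Cycle 2 has no libraries, 91.7% of the 36 genes were above their median of 28 to 34 h at 38 h, against 58.5% of all genes. The sterol median was 0.763 of the starved mean at 34 h and 0.886 at 36 h. It passed 1 at 37 h (1.14) and reached 1.52 at 38 h, when 16 of the 17 genes were above their starved mean. Tm7sf2, at a fold of 0.283, was the exception. At both 37 and 38 h, 14 of the 36 genes were more than 1.5-fold above their median of 28 to 34 h, against 18.2% of all genes, and 0 were as far below it. Scd2 had a median of 2757 at 28 to 34 h and values of 6379, 8200 and 10433 at 36, 37 and 38 h, the last above both starved libraries of Cycle 1. Lss went from 323 to 720, Mvd from 168 to 469, Insig1 from 309 to 716 and Stard4 from 205 to 509 at 38 h. Abca1 went from 144 to 706 at 37 h, and Acss2 and Mylip, though higher, were still at 0.676 and 0.365 of their starved means at 38 h. Scap, Abcg1 and Acaca were below their earlier median at 38 h, at ratios of 0.831, 0.549 and 0.875. Each of these hours is a single library, so these values have no replicate check.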

How the data were processed

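Polyadenylated RNA of each hour was sequenced by the authors as 50-base single reads from a stranded kit. Per the labels and the study's methods, the authors used CASAVA, STAR (genome mm9) and HOMER, whose versions are not given in the sources used here. The deposited values are a normalized signal, exon counts scaled per library, counted on both strands, so that antisense or overlapping transcripts cannot be told apart. Of 96 columns 95 were matched to libraries by name and 1 was not used. Whole reads were recovered from the step of each column: 94.7% to 98.5% of low values were whole within 0.1 read. Reads are not independent molecules, and depth limits counting precision only.

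The main test was limma 3.58.1 (R 4.3.3) on log2(value + 1) over 15895 genes, with the 4 starved libraries as 1 level, the 29 shared hours as levels and the cycle as a block (62 libraries, 31 residual degrees of freedom). The block was kept because a cycle is 1 time course; over 406 pairs of hours the deviations of the cycles correlated at a median of 0.445, and 395 were above 0.1. P-values are Benjamini-Hochberg adjusted over all genes and measure only the spread between these libraries, which may be technical. edgeR 4.0.16 on the recovered reads was an alternative and called 49.6% of genes in the test over hours. On simulated data for 9 to 14 h, 199 of 200 changed genes were recovered and 2 unchanged genes were called. The simulated libraries were drawn independently, with no difference between the cycles. These numbers therefore do not give the error rate under the correlation between hours above.

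All 36 genes were counted by group. Values were given for those called in a window and for those at the median of their group. The genes, lists and tests were chosen with earlier results of these data known. Alternatives were the pseudocount, a filter on low values, the scaling, the block, the threshold, and leaving out a cycle or a starved library. Of the further list, 3 genes are not reported here. Coordinates of genes are NCBIM37. Tables were handled with Python 3.11.15 and pandas 2.3.3.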

Additional observations from a re-analysis of the deposited data

Results flagged for a closer look

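A difference between the cycles in the change against the starved libraries, tested as an interaction in limma, was found for 3 of the 36 genes. For Acat2, the cytosolic thiolase, the change in Cycle 2 minus that in Cycle 1 was -1.37 at 9 to 14 h, -1.15 at 15 to 20 h and -1.11 at 21 to 27 h on the log2 scale (adjusted p = 0.00198, 0.00837 and 0.00989). For Sc4mol it was -1.09 at 4 to 8 h (adjusted p = 0.00284), where Cycle 1 ran from 729 to 1773 around its starved values of 1049 and 1050 and Cycle 2 from 1058 to 1283, below its own of 2059 and 1983. For Insig1 it was -1.09 at 9 to 14 h (adjusted p = 0.0216), where both cycles were below their starved libraries. The libraries of a window are consecutive hours. The starved levels of these genes were higher in Cycle 2 by 1.7, 1.92 and 1.6 times. Between 0.78% and 9.91% of all genes met the same limits in a window.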

How the results depend on the processing

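Each gene was compared in the window of its largest change in the main test, a choice that favours agreement. Of 575 comparisons of a single gene with 1 of 16 alternatives, 549 kept direction and call, 12 lost the call, 12 gained it and 2 changed sign, both for Scap at 1 to 3 h (0.081 under median ratio scaling and 0.051 with edgeR). Calls in other windows are not among these. Some were lost under median ratio scaling, such as Sqle at 9 to 14 h (-0.97), Fdps at 4 to 8 h (-0.90) and Stard4 at 15 to 20 h (-0.99). At 1 to 3 h the lower calls numbered 1 under median ratio scaling, 1 with edgeR and 13 at a 1.5-fold threshold, at which 22 were lower at 4 to 8 h and 26 at 21 to 27 h, against 25.2%, 30% and 29.1% of all genes. Leaving out a cycle or a starved library gave 1 to 6 lower calls at 1 to 3 h, 8 to 20 at 21 to 27 h and 0 to 1 higher calls at 4 to 8 h. The count of cycle differences was 3 to 5 without a starved library. The value 6 at 1 to 3 h and 8 at 21 to 27 h came without Cycle 2, and 4 at 1 to 3 h without the 0 h library of Cycle 1. Where a cycle was left out, the consecutive hours of a window stood as replicates. Without the replicate block 24 genes, against 27, were called over single hours, and no count in a window changed. In alternatives chosen after seeing the data, leaving out the 20 h library of Cycle 2 changed no count, and leaving out the 2 libraries of fewest reads gave 15 lower calls at 4 to 8 h, against 13. Hours with 1 library have no replicate, and Idi1 is limited by its reads.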
